A study of Homo sapiens with 6 samples.

Results

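The OAS family are the 2'-5' oligoadenylate synthetases, enzymes that recognise double-stranded RNA and join ATP into short chains called 2-5A. The 4 genes OAS1, OAS2, OAS3 and OASL were taken by symbol from the 60675 genes of the deposited expression table, and each symbol had 1 entry. The family was selected on its FPKM values in these same libraries, in which OAS3 and OAS1 had stood out between the groups. Their expression was compared between HCT116 cells, an established human colon cancer line, that stably expressed wild-type PHF5A (WT, 3 libraries) or its K29Q form, with glutamine in place of a lysine (K29Q, 3 libraries). PHF5A is a small subunit of the SF3B part of the U2 snRNP, and the labels mention no removal of the endogenous gene from either group. The labels name no empty-vector group, and do not say whether each group is 1 clone or whether its libraries came from separate cultures. The p-values below thus reflect library-to-library spread alone, part or all of which may be technical.

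In textbook knowledge, 2-5A is a second messenger of antiviral defence that leads to the cutting of cellular and viral RNA. OAS1, OAS2 and OAS3 make 2-5A, while human OASL has lost this activity, carries ubiquitin-like repeats and assists the RNA sensor RIG-I. The genes are induced by interferon through a complex that holds STAT2 and IRF9 and binds promoter elements rich in GAAA. Epithelial cells express part of this system at rest.

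OAS1 (ENSG00000089127, chr12:112906777-112933222), OAS3 (ENSG00000111331, chr12:112938352-112973249) and OAS2 (ENSG00000111335, chr12:112978395-113011723) lie head to tail on the plus strand of GRCh38. Only 5130 bases separate OAS1 from OAS3, and 5146 separate OAS3 from OAS2. OASL (ENSG00000135114, chr12:121019111-121039242, minus strand) lies 8007388 bases further along the chromosome. All 4 are protein-coding genes in GENCODE 29. Their longest annotated coding sequences encode 414 residues for OAS1, 726 for OAS2, 1087 for OAS3 and 514 for OASL, the OAS proteins differing in how many copies of the synthetase unit they hold.

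Promoter sequence from RefSeq (GRCh38.p14) was matched for OAS1 and OAS3 and not for OAS2 and OASL. The 30-base stretches of these 2 promoters that hold GAAA repeats are shown because such repeats mark interferon-responsive elements. Capitals mark a pair of GAAA units, on the strand shown, with 2 bases between them (the wide spacing) or 1 base (the narrow spacing, GAAANGAAA), and positions count back from the base before the RefSeq start.
OAS1, chr12:112906932-112906961, plus strand: cctcccttctgagGAAACGAAAccaacagc
OAS3 near the start, chr12:112938444-112938473, plus strand: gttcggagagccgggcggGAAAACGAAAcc
OAS3 further upstream, chr12:112938320-112938349, plus strand: tagaaaGAAACGAAACTGAAAgcagggaat

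OAS3 held 2 matches with the wide spacing, at bases -12 to -3 and -143 to -134 on the plus strand, and the second overlapped a narrow match at -148 to -140. OAS1 held no wide match, and 1 narrow match at -17 to -9. Both strands of 250 bases before and 50 after each start were searched. Among all 35116 RefSeq promoters given, 3.57% held the wide spacing and 3.12% the narrow one, which was added after the sequences were seen. Of 31 other interferon-induced genes 28 had such a promoter, and 22 of these (78.6%) held the wide spacing. The wide spacing followed by CT was in 16 of the 28 promoters, in 0.273% of all promoters and in neither OAS1 nor OAS3. GENCODE 29 places the earliest starts of both genes upstream of the RefSeq ones, so the distances depend on the start chosen. A match describes letters and not a bound site.

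Genes with at least 1 FPKM in at least 3 libraries were fitted (13261), and 7 passed an adjusted p of 0.05 (limma, Benjamini-Hochberg), 4 higher (0.0302%) and 3 lower (0.0226%) in K29Q. At an unadjusted p under 0.05 there were 1664 (12.5%), of which 1015 (7.65% of those tested) were higher in K29Q. A value with ± is the mean and SD of the 3 libraries of a group, WT first and K29Q second. PHF5A itself, whose reads include the introduced copy, had 32.4 to 34.4 FPKM in WT and 41.4 to 45.9 in K29Q, a ratio of 1.33. Gene totals do not separate mutant from wild-type transcripts. Library WT 1 weighed on the fit, which called 20 genes without it, and 79 genes passed after GC and length correction. Run names in the column headers were taken to mark flow cells. Flow cell A held WT 2, K29Q 1 and K29Q 2, and flow cell B held WT 1, WT 3 and K29Q 3. Of 9 markers of leukocytes, fibroblasts and endothelium 8 stayed under 1 FPKM in every library. The exception was COL1A1 (4.35 to 5.93), and the list summed to 5.47 to 6.66 FPKM in WT and 5.80 to 7.31 in K29Q. Of 7 colon epithelium markers 6 were tested and 4 of these lay lower in K29Q without overlap (KRT8, KRT18, KRT19 and CDH1), as did 9.00% of all tested genes, their list summing to 1250 to 1400 FPKM in WT and 1150 to 1200 in K29Q. The part of these shifts in the OAS values was not tested. EPCAM and CDX2, also tested, overlapped between the groups. VIL1, a brush border marker too weak to be tested, was at 0.0358 to 0.0538 FPKM in WT and 0.0560 to 0.181 in K29Q. It thus lay the other way, above WT without overlap, as did 8.80% of all tested genes.

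All 4 family members had higher values in every K29Q library than in any WT library. The family was proposed with this contrast known, so the values describe it and support nothing further. In bulk RNA, a change in the share of cells that express a gene and a change per cell cannot be told apart. For scale, 8.80% of the tested genes had all K29Q libraries above all WT libraries. Of the 4 members 3 could be fitted, since OAS2 was below the expression filter. OAS1 entered the fit through its K29Q libraries alone, as did 37 tested genes in all, so a difference was built into its passing. OAS3 was the 1 member past the threshold, where 0.0528% of tested genes were in either direction and 0.0302% upward, and nothing is read from that count. The limma adjusted p was 0.0357 for OAS3, 0.0502 for OAS1 and 0.368 for OASL, so the threshold barely parted OAS3 from OAS1. Since the family was selected on these values, these adjusted p are a description and not a test. OAS3 was not past the threshold when any single library was left out, with a flow cell term, with a replicate block, or with no filter on low values.

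OAS3, the synthetase with the greatest affinity for long double-stranded RNA and the main source of 2-5A in many human cells, was by far the most abundant. Its FPKM was 9.73, 11.0 and 10.1 in WT 1 to 3 and 17.4, 16.5 and 16.8 in K29Q 1 to 3. The 6 values formed 2 separate groups, with WT 2 the highest of the WT libraries. The means were 10.3 ± 0.653 and 16.9 ± 0.462, a ratio of 1.65. On the log2(FPKM + 1) scale the fold change was 0.67 (SE 0.0661). The log2 difference was 0.58 among flow cell A libraries and 0.71 among those of B.

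OAS1, the smallest active synthetase, had the highest ratio of the fitted members at a level far below OAS3. Its FPKM was 0.460, 0.390 and 0.341 in WT 1 to 3 and 1.27, 1.19 and 1.30 in K29Q 1 to 3. The lowest K29Q value lay well above the highest WT value. The means were 0.397 ± 0.0598 and 1.25 ± 0.0587, a ratio of 3.15. The log2 fold change was 0.69 (SE 0.0729), close to that of OAS3 because the added 1 compresses low values. With 0.1 added in place of 1 it was 1.45 for OAS1 and 0.72 for OAS3. Within flow cells A and B it was 0.68 and 0.71.

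OASL, the member without synthetase activity, differed least among the fitted members. Its FPKM was 2.73, 2.18 and 2.37 in WT 1 to 3 and 2.91, 3.11 and 3.04 in K29Q 1 to 3. WT 1 came close to K29Q 1. The means were 2.43 ± 0.276 and 3.02 ± 0.101, a ratio of 1.24. The log2 fold change was 0.23 (SE 0.0784), and the same difference was 0.33 in flow cell A and 0.19 in B.

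OAS2, a synthetase that acts as a dimer, was barely detected. Its FPKM was 0.0199, 0.0141 and 0.0266 in WT 1 to 3 and 0.0354, 0.0749 and 0.0665 in K29Q 1 to 3. The groups did not overlap, but K29Q 1 lay nearer to WT 3 than to the other K29Q libraries. If 1 step in the values of the table is 1 fragment, then at the longest annotated transcript these values correspond to about 2 to 5 fragments per WT library and 6 to 14 per K29Q library. The ratio of the means was 2.92 (0.0202 ± 0.00623 and 0.0590 ± 0.0208), and depth limits how firmly it can be read. By the same estimate OAS1 rested on about 30 to 40 fragments in WT and 105 to 114 in K29Q, and OAS3 on 2368 to 2749 and 3789 to 4435.

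**Figure D1:**
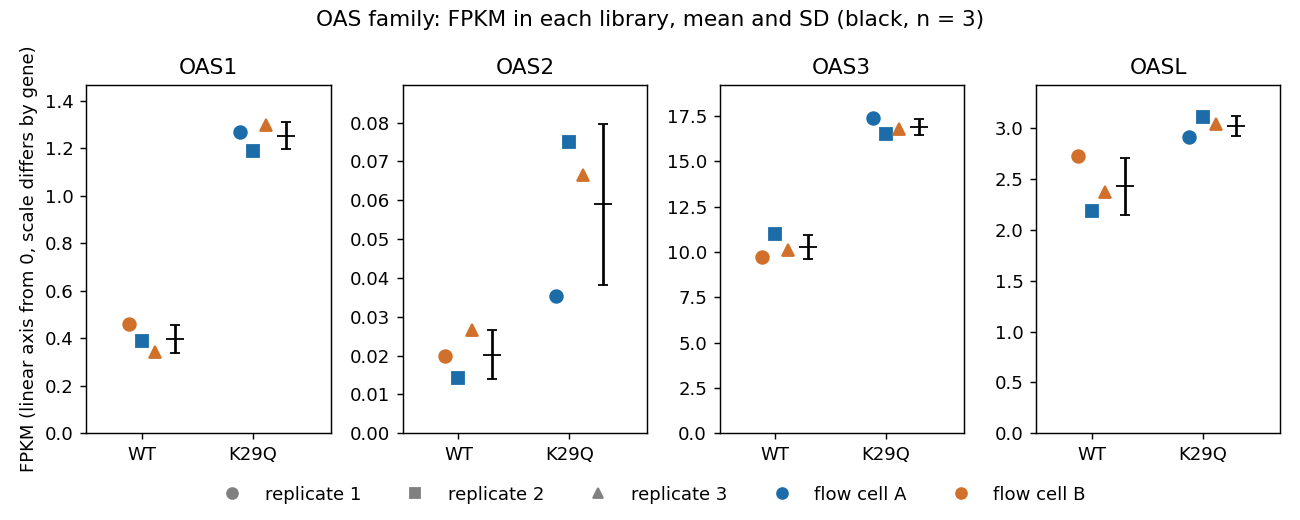
FPKM (vertical axes, each from 0 with its own scale) of OAS1, OAS2, OAS3 and OASL in the WT and K29Q libraries. Symbols mark the replicate number, colours the flow cell, and black bars the mean and SD of 3 libraries. The K29Q points lie above the WT points for the 4 OAS genes, by the widest relative margin for OAS1 (1.19 to 1.30 against 0.341 to 0.460).

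FPKM is scaled by length, so levels can be set side by side. In every library of both groups the order was OAS3, OASL, OAS1 and OAS2. OAS3 made up 75.2% to 80.9% of the summed FPKM of the 4 genes in WT and 79.1% to 80.5% in K29Q, so its share overlapped between the groups. OAS1 made up 2.66% to 3.56% in WT and 5.67% to 6.11% in K29Q. OASL went the other way, from 16.1% to 21.1% in WT to 13.4% to 14.9% in K29Q. The sum over the 4 genes was 13.1 ± 0.436 and 21.3 ± 0.404 FPKM, a ratio of 1.62.

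In these libraries the balance between members therefore differed as well as the sum. OAS3 had 21.1, 28.2 and 29.5 times the FPKM of OAS1 in WT 1 to 3, and 13.7, 14.0 and 13.0 times in K29Q 1 to 3. OAS1 had 0.169, 0.179 and 0.144 times the FPKM of OASL in WT 1 to 3, and 0.437, 0.381 and 0.426 times in K29Q 1 to 3. OAS3 had 3.57, 5.04 and 4.25 times the FPKM of OASL in WT 1 to 3, and 6.00, 5.32 and 5.53 times in K29Q 1 to 3. The groups were separate for each of these ratios, by the least for OAS3 over OASL (5.04 in WT 2 against 5.32 in K29Q 2). Of single tested genes, 8.80% lay above WT without overlap and 9.00% below, and the matching share for ratios was not tested. The 3 ratios share their terms, so they are not independent. By the estimate above OAS1 rested on about 30 to 40 fragments in WT, and OASL on 265 to 405 over all libraries. These ratios come from the same contrast and are a description. In WT 1 the OAS1 and OASL values were the highest of the WT group and the OAS3 value the lowest. With 3 libraries and so few OAS1 fragments, whether the members varied together inside that group cannot be told.

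**Figure D2:**
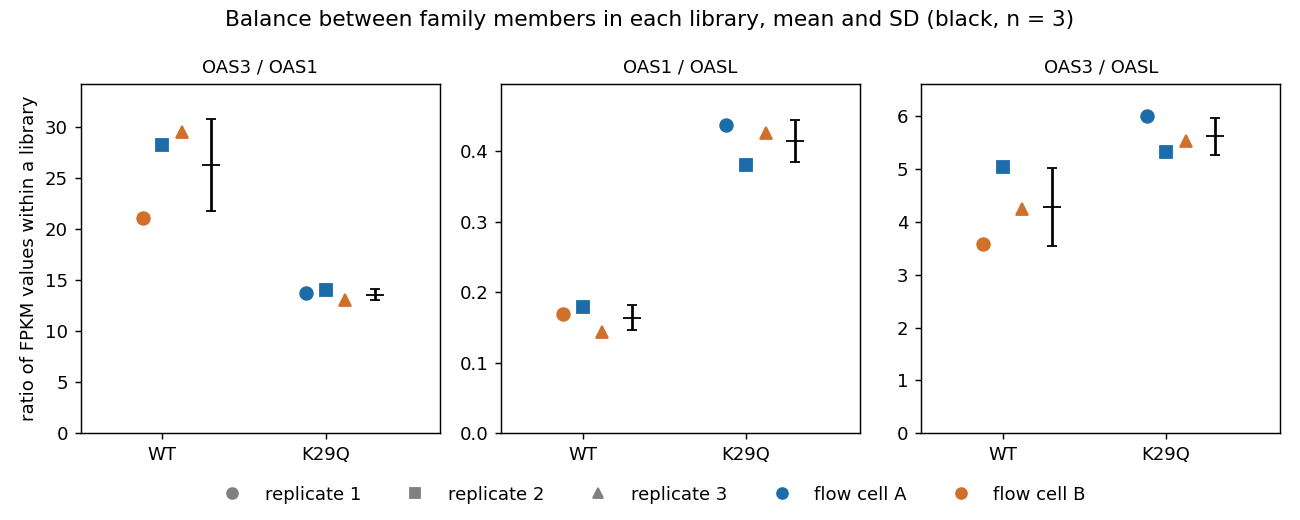
Ratios of FPKM values within each library (vertical axes from 0) for 3 pairs: OAS3 over OAS1, OAS1 over OASL, and OAS3 over OASL. Symbols, colours and bars mark replicate, flow cell, and the mean with SD (n = 3). OAS3 over OAS1 is 21.1 to 29.5 in WT and 13.0 to 14.0 in K29Q. The groups are separate in each of the 3 panels, whose ratios share terms and are not independent.

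Sequence and position were checked for their bearing on these values. Of all 50-base words in the annotated transcripts of the members, 0 were shared between any pair of them. For OAS1 1.07% of the words and for OAS3 0.615% occurred in another gene, and for OAS2 and OASL 0%. An antisense gene model (ENSG00000257452, RP1-71H24.1 in the table) spans chr12:112907628-113017751 on the minus strand. With its introns this range covers most of OAS1 and all of OAS3 and OAS2. Its 1 annotated transcript is only 575 bases long. With both strands counted, that transcript shared 50-base words with OAS1 and with neither OAS3 nor OAS2. The model was listed at 0 in 5 libraries and at 0.0231 FPKM in K29Q 3. The strand setting of the counting is not given in the sources used here. Any antisense reads that overlap OAS exons thus cannot be told apart from OAS reads.

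The tested genes around the cluster did not pass the test, and its direct neighbours were too weakly expressed to be tested. RPH3A, a synaptic vesicle protein that ends 7896 bases before OAS1, was at 0.0240 to 0.0577 FPKM. DTX1, a Notch regulator that starts 44986 bases after OAS2, was at 0.180 to 0.302 FPKM. Of 7 protein-coding genes wholly within 300000 bases of the cluster 6 were tested and 0 passed (limma, 0 also at an unadjusted p under 0.05), with log2 fold changes from -0.24 to 0.093. On the side of OASL with higher coordinates P2RX7, an ATP-gated ion channel, differed by a log2 value of 0.18 (SE 0.189, adjusted p = 0.697 with limma). Of 6 neighbours of OASL reported within the same distance 5 were tested and 0 passed (limma, 0 at an unadjusted p under 0.05), with log2 fold changes from -0.047 to 0.35. At each locus 1 tested neighbour lay above WT without overlap and 0 lay below, against 8.80% and 9.00% of all tested genes.

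**Figure D3:**
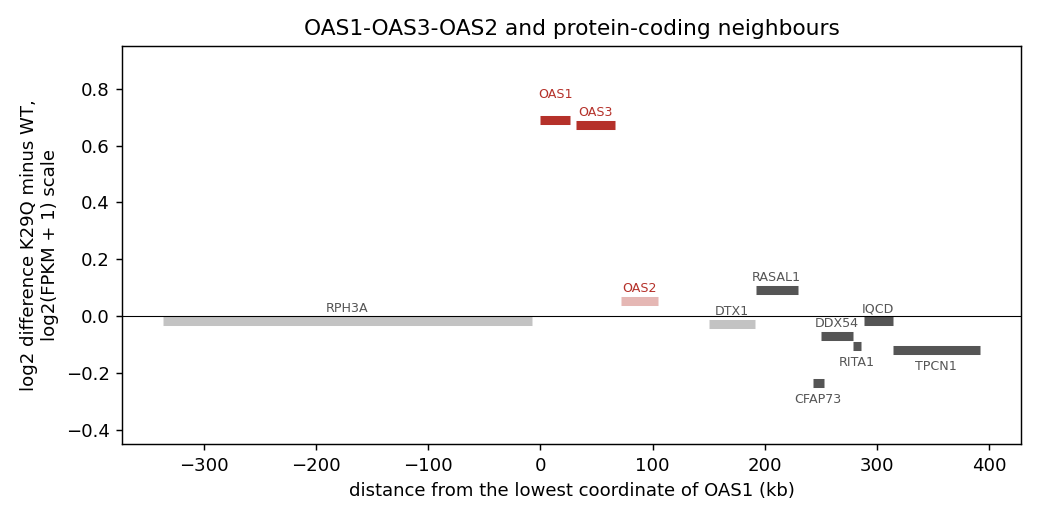
Log2 difference K29Q minus WT (vertical axis, log2(FPKM + 1) scale) of OAS1, OAS3 and OAS2 (red) and neighbouring protein-coding genes (grey) against distance from the lowest coordinate of OAS1 in kb. Bars span each gene, and pale bars are genes below the expression filter. OAS1 and OAS3 stand at 0.69 and 0.67, while tested genes within 300000 bases of the cluster lie between -0.24 and 0.093.

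Genes that remove 2-5A or oppose its action did not pass the test: of 3 reported here 2 were tested and 0 passed (limma, 0 at an unadjusted p under 0.05). ABCE1, a ribosome recycling factor also known to oppose 2-5A action, had 15.4 ± 2.89 and 17.8 ± 1.71 FPKM, with overlap and a limma adjusted p of 0.526. PDE12, a phosphodiesterase that degrades 2-5A, had 8.24, 8.18 and 7.65 FPKM in WT 1 to 3 and 7.19, 7.21 and 7.63 in K29Q 1 to 3. All K29Q values of PDE12 lay below the WT values, the nearest by 7.63 against 7.65, and the log2 fold change was -0.11 (SE 0.0618, adjusted p = 0.484 with limma). AKAP7, an anchoring protein with a 2-5A phosphodiesterase domain, was at 0.184 to 0.508 FPKM and was not tested.

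Other sensors of double-stranded RNA and their partners formed the next list. Of its 13 genes 10 were tested and 0 passed with limma, while 5 had an unadjusted p under 0.05, all of them higher (7.65% of all tested genes were), and 6 of the 10 lay above WT without overlap, against 8.80% of all tested genes. IFIH1, the sensor MDA5, had 1.51 ± 0.245 and 3.31 ± 0.140 FPKM, a ratio of 2.19 (limma adjusted p = 0.0571). DDX58, the sensor RIG-I that OASL assists, had 3.99 ± 0.920 and 7.40 ± 0.373 (ratio 1.85, adjusted p = 0.121). EIF2AK2, the kinase PKR, had 9.13 ± 0.963 and 12.7 ± 0.777 (ratio 1.40, adjusted p = 0.176), and ZC3HAV1, the zinc finger antiviral protein, 7.94 ± 0.590 and 9.75 ± 0.0412 (ratio 1.23, adjusted p = 0.289). Without WT 1 both IFIH1 (limma adjusted p = 0.0421) and DDX58 (0.0312) passed. Over all alternatives the limma adjusted p ran from 0.0135 to 0.288 for IFIH1 and from 0.0312 to 0.375 for DDX58, and both also passed after GC and length correction, as IFIH1 did with quantile normalization. MAVS, the adaptor of RIG-I and MDA5, had 35.9 ± 1.65 and 34.4 ± 0.314 FPKM. It was the 1 gene of the 10 that lay below WT without overlap, against 9.00% of all tested genes. A log2 fold change below 0 was seen for 4 of the 10. ZBP1 was listed at 0 in all libraries.

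The cyclic dinucleotide arm starts with cGAS, which shares the fold of the OAS enzymes and senses DNA. The cGAS gene (MB21D1) was at 0 to 0.0200 FPKM and IFI16 at 0 to 0.00524. Of 9 genes on this list 6 were tested and 0 passed (limma, 0 at an unadjusted p under 0.05). The kinase TBK1 had 6.56 ± 1.13 and 8.14 ± 0.895 FPKM, and the adaptor TMEM173 (STING) 5.73 ± 0.350 and 6.32 ± 0.0646. IKBKE had 3.25 ± 0.413 and 2.89 ± 0.0574 FPKM. IRF3, the factor these kinases activate, had 9.82 ± 1.38 and 10.7 ± 1.15 FPKM, with overlap. TMEM173 lay above WT without overlap and IKBKE below, as did 8.80% and 9.00% of all tested genes.

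Interferon signalling holds the factors that act on OAS promoters. The interferon genes on this list were near the limit of detection: IFNB1 was at 0 to 0.0346 FPKM and IFNL1, IFNL2 and IFNL3 at 0 to 0.307. Other interferon genes were not listed. The groups overlapped for each of those listed, also for IFNL2 (0.0829 ± 0.0279 and 0.186 ± 0.135), which held the highest value. Of 17 genes reported here 13 were tested and 0 passed (limma). At an unadjusted p under 0.05 there were 2 of the 13, both higher. Of all tested genes 12.5% were in either direction and 7.65% higher, and nothing is read from 2 genes. IRF9, the DNA-binding partner of STAT2, had 1.98 ± 0.323 and 3.16 ± 0.518 FPKM (ratio 1.60, limma adjusted p = 0.287). IRF7 had 6.23 ± 1.06 and 10.1 ± 1.18 (ratio 1.63, limma adjusted p = 0.185, and 0.0238 to 0.460 over the alternatives, passing after GC and length correction alone). The groups did not overlap for IRF9 and IRF7, K29Q being above, as for 8.80% of all tested genes. They overlapped for STAT2 (6.03 ± 0.604 and 6.77 ± 0.683), for IRF1 (1.73 ± 0.0749 and 1.74 ± 0.0489), for the receptor chain IFNAR1 (6.09 ± 0.634 and 6.81 ± 0.370), and for USP18, a brake on the receptor (4.22 ± 0.397 and 4.82 ± 0.202).

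Interferon-induced effectors held the 1 pathway gene past the threshold. Of 31 genes 20 were tested and 1 passed, IFI6, with 34.1 ± 0.663 and 98.9 ± 13.3 FPKM (ratio 2.90, limma adjusted p = 0.00352). IFI6 fell short with no filter on low values (limma adjusted p = 0.0578) and passed under the other alternatives, at 0.00203 to 0.0415. Of the 20, 19 had a log2 fold change above 0 (51.0% of all tested genes did). The median log2 fold change was 0.44, where all tested genes had 0.003. Without overlap 16 lay above WT and 1 below, against 8.80% and 9.00% of all tested genes. At an unadjusted p under 0.05 (limma) there were 17, of which 16 were higher, against 12.5% and 7.65% of all tested genes. IFIT1, which binds foreign RNA ends, had 4.88 ± 0.552 and 8.96 ± 0.478 (ratio 1.84, adjusted p = 0.0571), and the ubiquitin-like ISG15 82.7 ± 5.52 and 124 ± 6.36 (ratio 1.50, adjusted p = 0.0710). Over the alternatives the limma adjusted p ran from 0.00997 to 0.301 for IFIT1 and from 0.0255 to 0.338 for ISG15. Both passed with quantile normalization and after GC and length correction, and IFIT1 also without WT 1. DTX3L, a ubiquitin ligase that works with PARP9, had 3.60 ± 0.260 and 6.00 ± 0.467 (ratio 1.67, limma adjusted p = 0.0811, and 0.0265 to 0.343 over the alternatives, passing after GC and length correction alone). IFITM2, an entry restriction factor chosen after its values were seen, lay the other way at 25.5 ± 3.17 and 21.3 ± 0.907 (adjusted p = 0.389). Other effectors were as weakly detected as OAS2, with MX2 at 0.00213 to 0.0113 FPKM and RSAD2 at 0.00996 to 0.0384, both also chosen after their values were seen. Over the 5 pathway lists 51 reported genes were tested and 1 passed (1.96%, against 0.0528% of all tested genes). At an unadjusted p under 0.05 (limma) there were 24, of which 23 were higher. Without overlap 25 lay above WT and 4 below. The matching shares of all tested genes were 12.5%, 7.65%, 8.80% and 9.00%. The lists were chosen with earlier results of these data known, so these counts are a description.

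**Figure D4:**
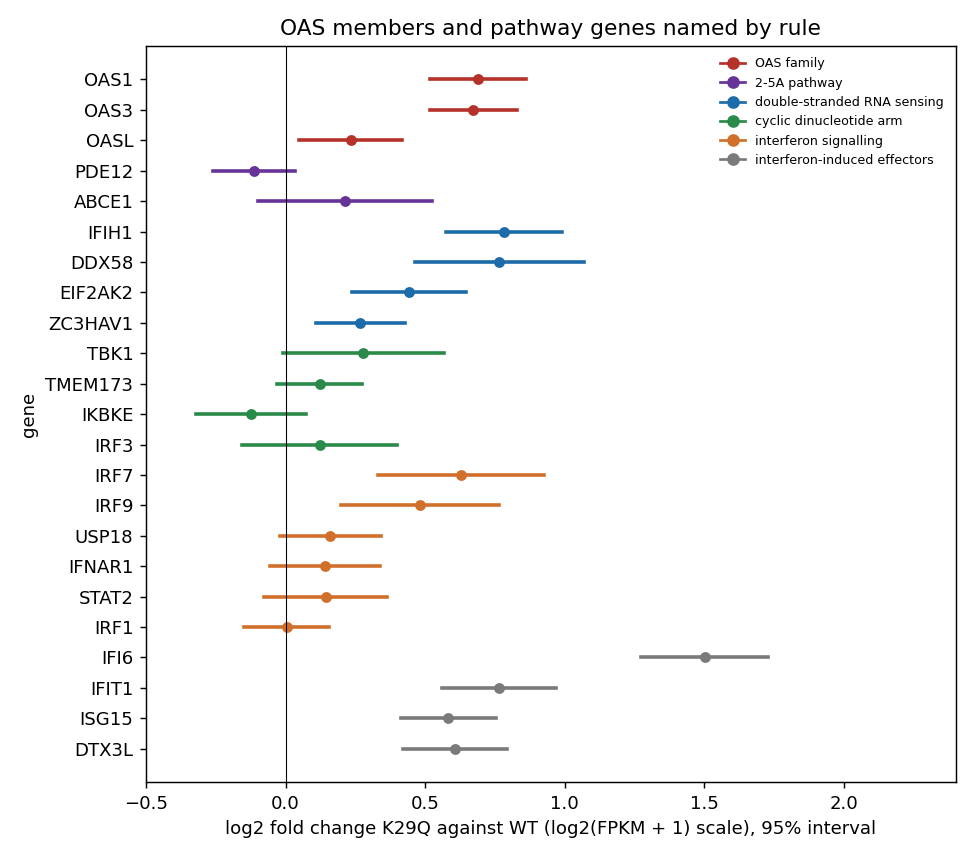
Log2 fold change of K29Q against WT (horizontal axis, log2(FPKM + 1) scale) with its 95% confidence interval from the limma fit, for the fitted OAS genes and the tested pathway genes named by rule, coloured by list. OAS1 (0.69), OAS3 (0.67), IFIH1 (0.78) and DDX58 (0.77) lie to the right of IRF1 (0.0046), and IFI6 is furthest right at 1.50.

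The genes most like each member were ranked by Pearson's r of log2(FPKM + 1) over the 6 libraries, as a description that includes the difference between the groups. For OAS1 the first 5 of the other tested genes included UBFD1 (0.996), IFIH1 (0.995), ZBTB40 (0.988) and MRPL49 (0.987). OAS3 was followed by GTF2IRD2B (0.996), ISG15 (0.995), AQP3 (0.993), PALLD (0.992) and IFT20 (0.991). The genes nearest to OASL were CLN8 (0.993), TLR6 (0.991), KLHL24, ZNF600 and SPTSSA (0.990 each). Between members r was 0.978 for OAS1 and OAS3, 0.882 for OAS1 and OASL, and 0.775 for OAS3 and OASL.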

How the data were processed

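RNA of 3 WT and 3 K29Q HCT116 samples was sequenced. The authors deposited an FPKM for every gene in every library. The submitters' processing notes name HISAT2 2.1.0, StringTie and GRCh38. The StringTie version, annotation release and strand setting were not given in the sources used. Depth is not stated. Steps in the values of single-exon genes over 600 bases gave estimates of 33500000 to 39900000 fragments, with 45.4% to 47.8% of low values within 0.1 of a whole step, so no count test was run. Here log2(FPKM + 1) was fitted with limma 3.58.1 in R 4.3.3 (intensity trend, group as the only term) for genes reaching 1 FPKM in 3 or more libraries, with Benjamini-Hochberg adjustment over 13261 genes, after a check on simulated data. Positions come from GENCODE 29, matched by gene ID for 57055 of 60675 genes. The members and lists were chosen with earlier results of these data known. Named genes were the members, the 2-5A list, the nearest neighbours, up to 4 genes of smallest p per other list, STAT and IRF genes by role, and the 5 genes most like each fitted member. Other list genes given with values (MAVS, ZBP1, MB21D1, IFI16, IFNB1, IFNL1, IFNL2, IFNL3, IFITM2, MX2 and RSAD2), and markers, were chosen after their values were seen. A few genes of these lists and loci are not reported here and are left out of the list, neighbour and pathway counts, though the fit and its adjustment ran over every gene.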

Additional observations from a re-analysis of the deposited data

How the results depend on the processing

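The direction of the OAS1, OAS2, OAS3 and OASL differences held under every alternative that could be run for them. Values that moved beyond the spread between libraries were those with a pseudocount of 0.1, at 1.45 for OAS1 and 0.40 for OAS2. Leaving out 1 library gave log2 fold changes from 0.66 to 0.72 for OAS1, 0.043 to 0.070 for OAS2, 0.64 to 0.72 for OAS3 and 0.18 to 0.30 for OASL. The number of members past the threshold was 1 in the main analysis. It was 2 (OAS1 and OAS3) with quantile normalization and with GC and length correction, and 0 with no filter on low values, with a flow cell term, and when any single library was left out (0 each). The number of genes past the threshold was 7, with 13 under quantile normalization, 2 with no filter, 4 with a flow cell term, 79 after GC and length correction (58 higher and 21 lower), and 5 to 20 with 1 library left out, the most without WT 1 (20) and then K29Q 1 (12). Pathway genes past the threshold numbered 1, with 4 under quantile normalization, 0 with no filter, 10 after GC and length correction, and 1 to 4 with 1 library left out, the most without WT 1. The cause of these changes was not tested, except that fewer libraries or more genes tested follow from how those alternatives are built.

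Deviations from the group mean correlated across genes at -0.14, 0.179 and -0.165 for same-numbered libraries, and at -0.115 to 0.247 for the other pairs. Deviations from a mean of 3 libraries constrain one another, and the pairs numbered 2 and 3 also shared a flow cell. These correlations thus cannot decide whether the libraries were paired by number. With the replicate block 3 genes and 0 members passed, and IFI6 remained the 1 pathway gene. IRF1 reversed to -0.0348 with quantile normalization and ran from -0.0141 (without WT 2) to 0.0252 (without WT 3) with 1 library left out, at -0.0073 without K29Q 3. IFI6 fell short with no filter (limma adjusted p = 0.0578). Depth limits OAS2 most.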
